A study of Mus musculus with 6 samples.

Results

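The interferon response genes are a set of 40 genes known to be switched on by interferons, among them guanylate-binding proteins and immunoproteasome subunits. They were taken by name from a table of 49568 genes measured in mouse lung. The rule used no measured value, but the list was drawn up with earlier results of these data known. All 40 passed the filter on low values, which asked for a normalized count of 10 or more in 3 or more libraries, and 16879 genes passed it in all. RNA was sequenced from the perfused right lung lobes of C57BL/6 mice aged 6 weeks, either Col6a1-/-, which carry a disrupted gene for the collagen VI alpha-1 chain, or wildtype. A library was made from the pooled RNA of 2 mice of one genotype, and there were 3 such pools per genotype, called replicates here. The labels name no treatment or infection and do not give the sex of the animals. The comparison between genotypes asked which lung transcripts differed without collagen VI alpha-1, here among interferon response genes.

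Interferons are secreted proteins that warn cells of viruses and other microbes. Type I and type III interferons bind their receptors and lead, through JAK kinases, to a complex containing STAT2 and IRF9 that binds a DNA element called the interferon-stimulated response element (ISRE). Interferon-gamma, the type II interferon, acts through a second element, the gamma-activated site (GAS). The genes induced in this way detect foreign nucleic acid, block steps of viral growth, attack the membranes around intracellular microbes and load peptides for display to T cells, and the lung lining keeps a low level of many of them at rest.

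Of the 40 genes, 30 had an entry in the RefSeq table of gene starts (GRCm38.p6), each covering 250 bases before to 50 bases after the start. The ISRE core was a pair of GAAA blocks with any 2 bases between them, read on both strands and allowed to overlap itself. It lay in a window of 17 of these 30 genes (56.7%) and of 1079 of all 27025 genes with an entry (3.99%). A gene with several windows was counted once. The GAS core TTCNNNGAA, which reads alike on both strands, lay in a window of 9 of the 30 genes (30.0%) and of 2582 of all 27025 (9.55%). The windows of Bst2, Gbp5, Gbp7, Igtp and Oas1a held both letter patterns. A match describes the letters only. Shown here are the 190 bases before the start, 5′ to 3′ on the gene's own strand, of the genes on which the results turn. They are Ifit3 at chr19:34583339-34583528 (plus strand), its near copy Ifit3b at chr19:34607767-34607956 (plus), Ifit1 at chr19:34640699-34640888 (plus), Isg15 at chr4:156200819-156201008 (minus) and Rsad2 at chr12:26456453-26456642 (minus). Capitals mark ISRE matches, and a pair of TTTC blocks is the same core read from the other strand.
Ifit3: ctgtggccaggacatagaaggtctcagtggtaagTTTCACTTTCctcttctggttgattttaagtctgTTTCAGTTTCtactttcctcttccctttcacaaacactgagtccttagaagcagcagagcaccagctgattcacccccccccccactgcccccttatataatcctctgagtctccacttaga
Ifit3b: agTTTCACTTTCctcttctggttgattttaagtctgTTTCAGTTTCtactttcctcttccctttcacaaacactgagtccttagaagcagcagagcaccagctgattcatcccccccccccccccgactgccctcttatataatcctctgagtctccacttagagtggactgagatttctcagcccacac
Ifit1: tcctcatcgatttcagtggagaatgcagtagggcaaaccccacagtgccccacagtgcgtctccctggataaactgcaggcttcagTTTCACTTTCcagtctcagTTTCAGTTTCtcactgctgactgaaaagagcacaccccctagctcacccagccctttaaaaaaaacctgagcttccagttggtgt
Isg15: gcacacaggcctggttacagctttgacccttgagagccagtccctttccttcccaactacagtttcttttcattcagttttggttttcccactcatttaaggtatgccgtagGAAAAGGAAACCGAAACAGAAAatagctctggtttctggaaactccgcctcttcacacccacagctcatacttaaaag
Rsad2: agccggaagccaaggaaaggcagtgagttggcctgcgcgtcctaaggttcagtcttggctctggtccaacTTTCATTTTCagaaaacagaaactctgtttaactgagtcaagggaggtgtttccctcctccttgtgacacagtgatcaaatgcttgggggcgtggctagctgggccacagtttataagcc
The Ifit3 and Ifit3b stretches carried the same pair of capital blocks with the same letters between them. Ifit1 held a similar pair nearer to its start, Isg15 a run of overlapping matches, and Rsad2 a single match.

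The targeted gene separated the genotypes. The Col6a1 normalized count (reads divided by a size factor for each library) was 10034, 10616 and 9344 in Col6a1-/- replicates 1 to 3 and 19907, 18393 and 22330 in wildtype replicates 1 to 3. This was 49.5% of the wildtype level (log2 fold change -1.01, SE 0.10, limma adjusted p = 0.00643). The libraries held 28055414 to 37904878 reads in genes. The male share of a pool, taken here from the Y-linked genes Ddx3y, Eif2s3y, Kdm5d and Uty, whose averaged level was set against the library where it was highest, was 72.5%, 100% and 51.1% in the Col6a1-/- pools and 0.347%, 3.35% and 51.5% in the wildtype pools. Xist, made by the inactive X chromosome, was 28.4 in Col6a1-/- replicate 2 and 10486 to 16430 elsewhere. Genotype and sex of the pools were therefore partly confounded, and Col6a1-/- replicate 2 was the only pool with Xist near 0.

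None of the 40 interferon response genes passed the test between genotypes, a limma fit across all tested genes with Benjamini-Hochberg adjustment at 0.05. By the same rule 0.0652% of all tested genes were called. Estimates were lower in Col6a1-/- for 23 genes and higher for 17, where 48.3% of all tested genes had a lower estimate. The median log2 fold change of the 40 was -0.04, and that of all tested genes was 0.01. At an unadjusted p under 0.05 there were 2 lower genes, Stat2 and Parp14 (10.6% of all tested genes), and 1 higher gene, Ifit3 (9.72% of all). There was no overlap between Col6a1-/- and wildtype libraries for 3 lower genes, Irf9, Ddx58 and Parp14 (14.2% of all), and 1 higher gene, Ifit3 (10.7% of all). Each of these 4 shares of the 40 was below that of all genes. On the recovered reads edgeR called 0 of the 40 (0.077% of all genes) and DESeq2 called 1, Ifit3 (5.06% of the genes to which it gave an adjusted p). With library quality weights limma called 3, Stat2, Ifit1 and Ifit3, where 19.1% of all genes were called. In the authors' deposited table, 1 of the 40 had an adjusted p under 0.05 and was higher, Ifit3 (1.87% of the genes with an adjusted p were higher), and 0 were lower (3.18% of such genes).

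**Figure D1:**
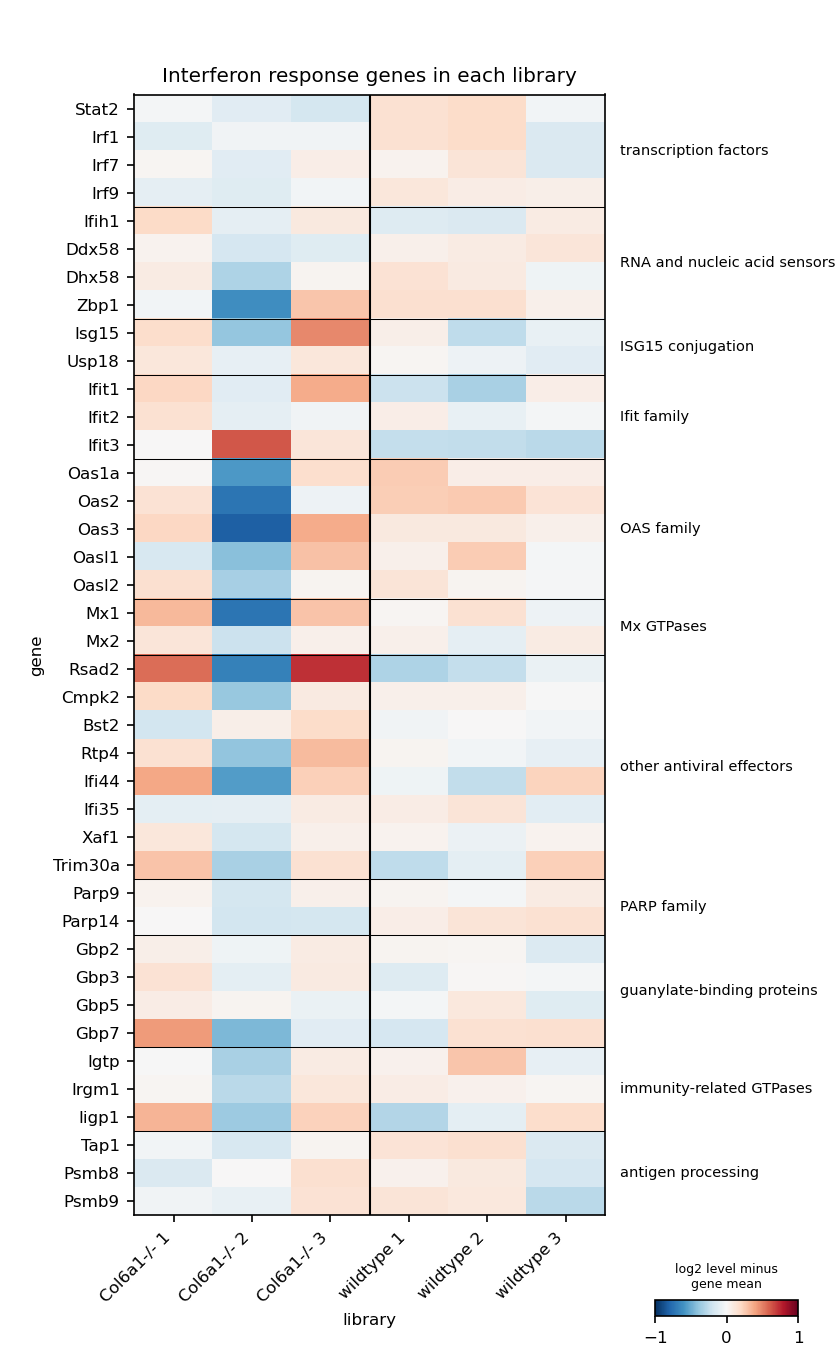
Level of each of the 40 interferon response genes (rows, grouped by role) in each of the 6 libraries (columns). Colour gives log2(normalized count + 1) minus the gene's mean over the 6 libraries, from -1 (blue) to 1 (red). Col6a1-/- replicate 2 is the lowest library for 26 genes and the highest for Ifit3.

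The spread between Col6a1-/- pools was larger than the difference between genotypes for most of the set. Col6a1-/- replicate 2 was the lowest of the 6 libraries for 26 of the 40 genes, against 16.9% of all tested genes, and the highest for 1, Ifit3, against 19.2%. Its median level over the 40 was 82.4% of the mean of the other Col6a1-/- pools, while over all tested genes the median was 100.1%. Averaged over the 40, the log2 level relative to the mean of all libraries was 0.10, -0.25 and 0.12 in Col6a1-/- and 0.02, 0.03 and -0.01 in wildtype. The SD of the log2 level was larger in Col6a1-/- than in wildtype for 32 of the 40, against 53.3% of all genes, with a median SD of 0.19 in Col6a1-/- and 0.10 in wildtype. The wildtype pools thus lay close together, and the Col6a1-/- pools lay on both sides of them.

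Without Col6a1-/- replicate 2 more of the 40 estimates were higher than lower. Then 27 of the 40 had a higher estimate in Col6a1-/-, against 51.1% of all genes, and the median log2 fold change was 0.05, against 0.01 over all genes. An unadjusted p under 0.05 was reached by 7 higher genes, Isg15, Ifit1, Ifit3, Rsad2, Rtp4, Ifi44 and Iigp1 (10.7% of all genes), and by no lower one (10.8% of all). Rsad2 alone among the 40 was called (0.281% of all genes were). Leaving out a Col6a1-/- library raises the Col6a1-/- estimates of the genes that were lowest in it. These counts were therefore set in part by that choice. With the male share as a covariate, 34 of the 40 estimates were higher, against 50.2% of all genes, the median was 0.16, and no gene of the whole table was called. The pools of like male share were too few for a fit within them.

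**Figure D2:**
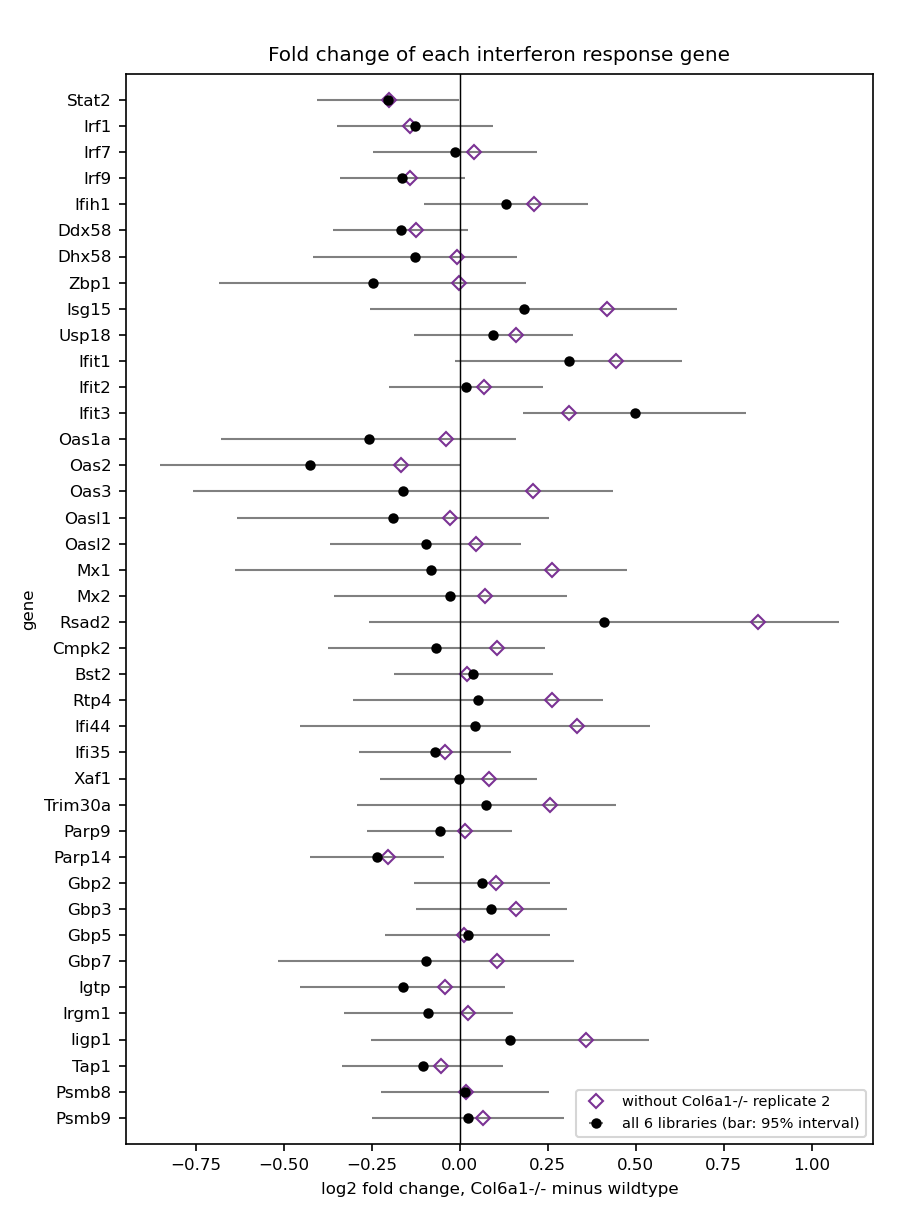
Log2 fold change of each interferon response gene, Col6a1-/- minus wildtype, on the log2(normalized count + 1) scale (horizontal axis). Black points are the fit with all 6 libraries and bars its 95% intervals, and open diamonds the fit without Col6a1-/- replicate 2. Only the intervals of Stat2, Ifit3 and Parp14 leave out 0 before any adjustment, and the diamonds of Rsad2, Oas3 and Mx1 lie far to the right of their points.

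The transcription factors of the response differed little between Col6a1-/- replicate 2 and the other Col6a1-/- pools. All 4, Stat2, Irf1, Irf7 and Irf9, had lower estimates in Col6a1-/-. Their median log2 fold change was -0.15 with all libraries, -0.14 without Col6a1-/- replicate 2 and -0.08 with a trend on transcript length and GC content removed, and no factor was called. Irf1, an activator induced above all by interferon-gamma, was the most abundant of them, with a normalized count of 3794, 4025 and 4021 in Col6a1-/- and 4576, 4680 and 3740 in wildtype. Wildtype replicate 3 was the lowest of the 6 libraries for Irf1, so the groups overlapped (log2 fold change -0.13, SE 0.10, limma adjusted p = 0.492). Irf9, the DNA-binding subunit of the complex that binds the ISRE, was 2169 to 2319 in Col6a1-/- and 2457 to 2562 in wildtype, with no overlap. Stat2, its activating subunit, was 2384 to 2648 against 2640 to 3062, where the ranges touched at wildtype replicate 3. Irf7, which amplifies type I interferon production, was 809 to 920 against 793 to 961, and its estimate turned from -0.01 to 0.04 without Col6a1-/- replicate 2.

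The sensors detect viral RNA or nucleic acid in unusual forms. Ddx58, which encodes the RNA sensor RIG-I, was the most abundant, at 2761, 2396 and 2481 in Col6a1-/- and 2789, 2845 and 2937 in wildtype. Every Col6a1-/- library lay below every wildtype library, but replicate 1 did so by a small margin (log2 fold change -0.17, SE 0.09, limma adjusted p = 0.296). Ifih1, which encodes the long-RNA sensor MDA5, was 1396 to 1698 against 1346 to 1573. Dhx58 (LGP2, a regulator of RIG-I and MDA5) was 313 to 409 against 376 to 428, and Zbp1 (a sensor of Z-form nucleic acid that can trigger cell death) was 188, 283 and 350 against 299 to 324. Zbp1 and Dhx58 were lowest in Col6a1-/- replicate 2, at 59.4% and 77.8% of the mean of the other Col6a1-/- pools.

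Isg15 encodes a ubiquitin-like tag attached to proteins during the response, and Usp18 the protease that removes the tag and damps the type I receptor. Usp18 was 697, 610 and 697 in Col6a1-/- and 655, 621 and 596 in wildtype (log2 fold change 0.10, SE 0.10, limma adjusted p = 0.622). Isg15 spread much further, at 392, 266 and 487 against 361, 291 and 331. Both the highest and the lowest Isg15 library were thus Col6a1-/- pools.

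The Ifit proteins bind viral RNA that lacks the marks of host messenger RNA, and Ifit3 gave the largest estimate of the set. Ifit3 (chr19:34583531-34588731, plus strand, GRCm38) was 1303, 2001 and 1418 in Col6a1-/- and 1105, 1100 and 1082 in wildtype. Every Col6a1-/- library lay above the wildtype libraries, which differed from each other by little, and the highest was replicate 2. The level was 144% of wildtype (log2 fold change 0.50, SE 0.14, unadjusted p = 0.00557, limma adjusted p = 0.120). The call depended on the tool: the authors' deposited table gave a log2 fold change of 0.44 with an adjusted p of 0.0230, DESeq2 on the recovered reads 0.52 with 0.0230, and edgeR 0.52 with 0.110. Without Col6a1-/- replicate 2 the log2 fold change was 0.31 (adjusted p = 0.123), and with the male share as a covariate it was 0.26 (adjusted p = 0.771).

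Ifit3 shares sequence with a neighbour. Of its 50-base stretches, 51.2% also occur in Ifit3b, a near copy in the same cluster, so reads from such stretches cannot be assigned to one of them with certainty. Ifit3b showed the same order of libraries among the Col6a1-/- pools, at 392, 504 and 420 against 334, 368 and 323 in wildtype (log2 fold change 0.35, SE 0.13, limma adjusted p = 0.170). The sum of both, which does not depend on how reads were split between them, was 1695, 2505 and 1837 against 1439, 1468 and 1406, or 1.40-fold higher, with no overlap. Ifit3 and Ifit3b were the only genes of the cluster that were highest in Col6a1-/- replicate 2. Ifit1 was 730, 583 and 815 against 544, 505 and 662, and Ifit2 was 1111, 938 and 977 against 1046, 948 and 988. Of the relatives outside the set, Ifit1bl1 was 156, 139 and 162 against 102, 127 and 136, and Ifit1bl2 was 86.7, 60.1 and 92.97 against 67.5, 61.5 and 73.6. In these 4 genes replicate 2 was the lowest Col6a1-/- pool. All 6 genes had higher estimates in Col6a1-/-, from 0.02 (Ifit2) to 0.50 (Ifit3) on the log2 scale, and none was called by limma. Of genes beside the cluster, Slc16a12 (0.22) and Pank1 (0.19) were also higher, and Ch25h (-0.20) and Lipa (-0.10) lower, none of them called.

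**Figure D3:**
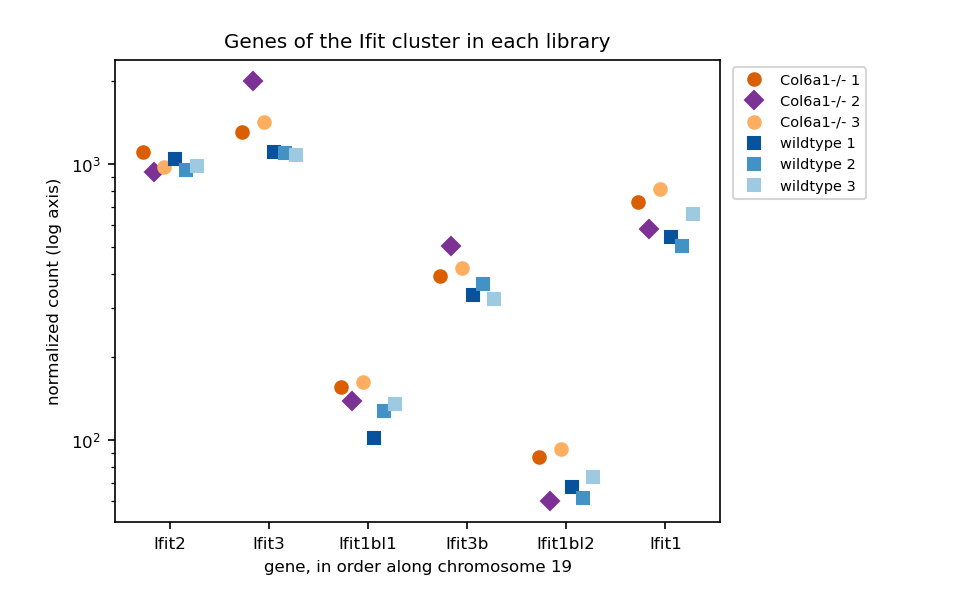
Normalized count (vertical log axis) of 6 genes of the Ifit cluster, in their order along chromosome 19, in each of the 6 libraries. Round and diamond points are Col6a1-/- pools and squares wildtype pools. Col6a1-/- replicate 2 (purple diamond) is the highest point for Ifit3 (2001) and Ifit3b (504) and the lowest Col6a1-/- point for the other 4.

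The OAS enzymes make short adenylate chains that activate an RNA-degrading enzyme, RNase L, while Oasl1 and Oasl2 are OAS-like proteins. All 5 had lower estimates in Col6a1-/-, and all 5 were lowest in Col6a1-/- replicate 2. Oasl2, the most abundant, was 2600, 1846 and 2371 in Col6a1-/- and 2543, 2369 and 2312 in wildtype (log2 fold change -0.10, SE 0.12, limma adjusted p = 0.678). Its other Col6a1-/- pools lay above the median wildtype pool, and without replicate 2 the estimate was 0.05. Oas2 was 477, 260 and 416 against 512, 517 and 474, and Oas3 was 144, 70.0 and 161 against 133, 133 and 129. For Oas3, which was nearly constant in wildtype, replicate 2 stood at 45.9% of the other Col6a1-/- pools. Oas1a was 197, 131 and 220 against 234, 205 and 204, with 57.6% of its 50-base stretches shared with Oas1g, and Oasl1 was 98.7, 82.0 and 135 against 114, 132 and 108. The median log2 fold change of the family was -0.19 with all libraries and -0.03 without replicate 2.

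The Mx proteins are dynamin-like GTPases that trap viral components. Mx1 was 202, 97.3 and 197 in Col6a1-/- and 164, 180 and 156 in wildtype (log2 fold change -0.08, SE 0.25, limma adjusted p = 0.883). The Col6a1-/- pools lay on both sides of the wildtype pools, 2 above all of them and replicate 2 below all of them. Without replicate 2 the estimate was 0.26 (adjusted p = 0.330). Mx2 was 161, 128 and 154 against 154, 139 and 157, again lowest in replicate 2.

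Among the other antiviral effectors, Rsad2 varied most. Rsad2, picked out here after its values were seen, encodes viperin, an enzyme that makes a chain-terminating nucleotide. It was 312, 132 and 351 in Col6a1-/- and 170, 179 and 202 in wildtype. Replicates 1 and 3 stood far above wildtype and replicate 2 below it, at 39.9% of the mean of the other Col6a1-/- pools. The log2 fold change was 0.41 (SE 0.30, limma adjusted p = 0.462) with all libraries. It was 0.85 (adjusted p = 0.0446) without replicate 2, a fit that leaves out the lowest library of this gene. Cmpk2, the nucleotide kinase encoded next to Rsad2, was 1002, 674 and 933 against 911, 908 and 874, so its other Col6a1-/- pools stayed near the wildtype level.

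Bst2, or tetherin, which holds budding virus at the cell surface, had the highest level per kilobase of transcript of the 40 (2993 normalized counts per kilobase). It was 2082, 2456 and 2687 in Col6a1-/- and 2310, 2370 and 2318 in wildtype (log2 fold change 0.04, SE 0.10, limma adjusted p = 0.860). Replicate 2 was not low for Bst2. Ifi44 was 505, 261 and 454 against 375, 325 and 449, and Rtp4, a chaperone of membrane receptors, was 896, 612 and 1000 against 821, 790 and 758. Trim30a, a ubiquitin-ligase family protein, was 1619, 1064 and 1478 against 1114, 1243 and 1571. Xaf1, a promoter of cell death, was 1012 to 1237 against 1096 to 1167, and Ifi35 was 1627 to 1852 against 1625 to 1911. Of these 8 effectors 6 were lowest in replicate 2, all but Bst2 and Ifi35.

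Parp14 and Parp9 attach ADP-ribose to proteins. Parp14 was 3944, 3478 and 3493 in Col6a1-/- and 4132, 4318 and 4382 in wildtype, with no overlap. This was 85.1% of the wildtype level (log2 fold change -0.24, SE 0.09, unadjusted p = 0.0202, limma adjusted p = 0.174). The estimate was -0.20 without replicate 2 and -0.12 with the length and GC trend removed. Parp9 was 1432 to 1679 against 1597 to 1713.

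The guanylate-binding proteins and the immunity-related GTPases, induced largely by interferon-gamma, gather on the vacuoles of intracellular microbes. Gbp2 was the most abundant of its family, at 2614, 2427 and 2645 in Col6a1-/- and 2546, 2540 and 2276 in wildtype (log2 fold change 0.06, SE 0.09, limma adjusted p = 0.709). Gbp3 was 1246 to 1477 against 1221 to 1348, and Gbp5 was 493 to 543 against 475 to 557. Gbp7 was 1823, 993 and 1256 against 1208, 1515 and 1517, and its highest and lowest libraries were both Col6a1-/- pools. Iigp1 led the immunity-related GTPases, at 2008, 1231 and 1861 against 1291, 1480 and 1792 (log2 fold change 0.14, SE 0.18, limma adjusted p = 0.678). Igtp was 764 to 1014 against 904 to 1161, and Irgm1 was 1251 to 1633 against 1527 to 1590. For Gbp7, 12.8% of the 50-base stretches also occur in other genes, and for Igtp 12.3% also occur in Irgm2. All 3 immunity-related GTPases were lowest in replicate 2, but of the 4 guanylate-binding proteins only Gbp7 was.

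Tap1, a subunit of the pump that carries peptides to MHC class I, and the immunoproteasome subunits Psmb8 and Psmb9 had estimates near 0. Tap1 was 2275, 2072 and 2354 in Col6a1-/- and 2551, 2587 and 2098 in wildtype (log2 fold change -0.11, SE 0.10, limma adjusted p = 0.584). Psmb8 was 1798 to 2217 against 1766 to 2129, and Psmb9 was 992 to 1155 against 867 to 1144. The low library here was another one. The summed count of the 3 genes was 4730 in wildtype replicate 3, below 5743 and 5837 in the other wildtype pools and 5056 to 5726 in Col6a1-/-. Irf1, Irf7, Usp18, Ifit3, Ifi35, Gbp2, Gbp5, Psmb8 and Psmb9 were all lowest in wildtype replicate 3. The share of all tested genes lowest in that library was not taken.

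How low Col6a1-/- replicate 2 lay differed by role. The median level in that pool, as a percentage of the other Col6a1-/- pools, was 62.9% for the OAS family, 65.0% for the Mx GTPases and 69.2% for the other antiviral effectors. It was 77.7% for the immunity-related GTPases and 81.2% for the sensors. It was 89.2% for the guanylate-binding proteins, 91.4% for antigen processing and 97.3% for the transcription factors. By abundance, the 5 genes with the highest level per kilobase were Bst2, Irf1 (1937), Ifi35 (1285), Psmb8 (1044) and Gbp2 (997), and none of these was lowest in replicate 2. The 5 with the lowest level per kilobase, Oas3 (27.2), Mx1 (49.1), Oasl1 (51.2), Rsad2 (53.6) and Mx2 (60.1), all were.

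Markers of several white blood cells were also low in this library. The 5 neutrophil markers S100a8, S100a9, Retnlg, Csf3r and Cxcr2 summed to 3344, 1520 and 3854 normalized counts in Col6a1-/- and 1729 to 2331 in wildtype, and 4 of the 5 were lowest in Col6a1-/- replicate 2. Of the 7 markers of T and natural killer cells 5 were lowest there, with sums of 1367 in that pool, 1732 and 1996 in the other Col6a1-/- pools and 1598 to 1848 in wildtype. Of the 7 markers of B and plasma cells 5 were, with sums of 8042 to 9092 in Col6a1-/- and 10355 to 13242 in wildtype, while Jchain, a plasma cell gene of that list, was highest there, at 125, 191 and 142 against 132, 70.3 and 48.4. Of the 5 markers of alveolar macrophages 4 were, with sums of 12491 to 15204 against 15747 to 17452, and of the 6 of monocytes and interstitial macrophages 2 were, with sums of 8475 to 9083 against 8909 to 9730. Red cell markers followed this order among the Col6a1-/- pools, with replicate 2 at a median of 68.5% of the others. But all 5 were higher in every Col6a1-/- pool than in wildtype, so none was lowest of all libraries in replicate 2. Their sums were 82645, 62062 and 102287 against 41736 to 47783. All 5 fat markers were highest in replicate 2, with sums of 4937 to 7394 against 1504 to 3665. The 5 endothelial markers were lower without overlap, against 14.2% of all tested genes, with sums of 102669 to 113266 against 129202 to 138946. Vwf of that list was called (log2 fold change -0.67, SE 0.09, limma adjusted p = 0.0468). The 5 markers of plasmacytoid dendritic cells, a known source of type I interferon, summed to 8653 to 9923 against 8777 to 10172, a sum made up mostly of Tcf4 and of Bst2 itself. Siglech and Ccr9 stood at 70.2% and 66.7% of wildtype (limma adjusted p = 0.195 and 0.208). Cox6a2 of the same list went the other way, at 112% (adjusted p = 0.551), with Tcf4 at 98.2% and Bst2 at 103%. The median log2 fold change of the list was -0.03. No marker of these lists was at 0 in all libraries. Their part in the low interferon response genes of replicate 2 was not tested, nor was that of the sex of the pool, and in whole lung fewer cells of a type and less RNA per cell cannot be told apart.

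**Figure D4:**
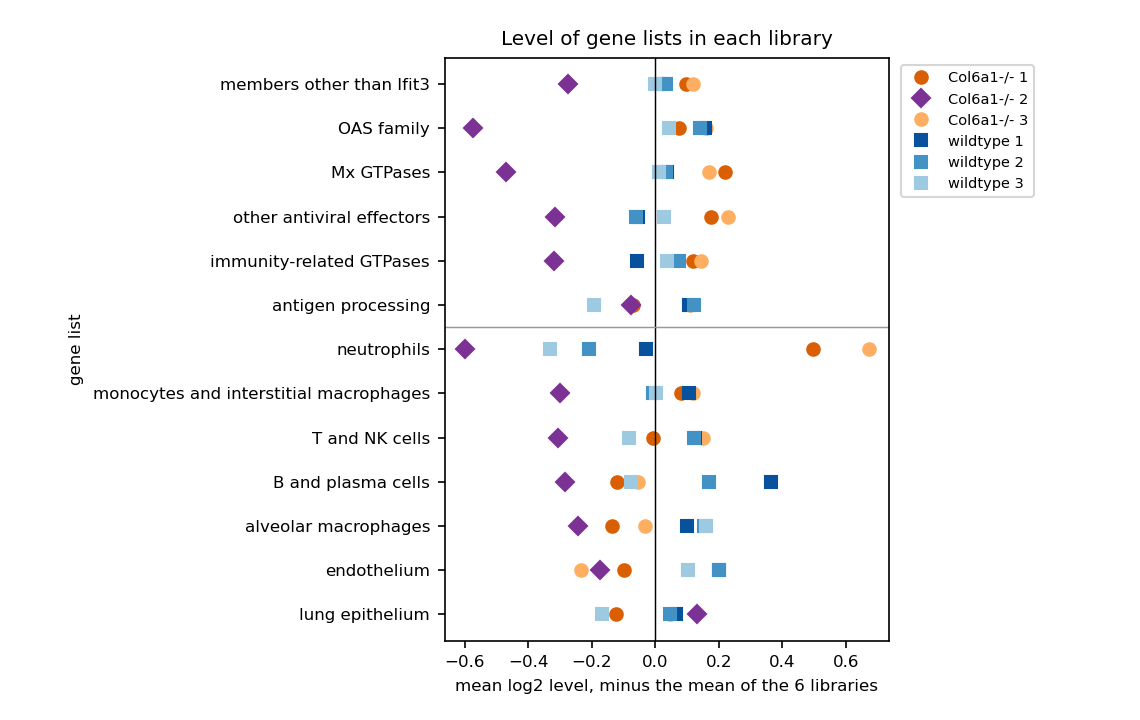
Mean log2(normalized count + 1) of gene lists in each library, minus the mean of the 6 libraries (horizontal axis). Interferon response genes are above the grey line and cell type markers below it. Col6a1-/- replicate 2 (purple diamond) is the lowest point of the interferon response genes (-0.27 without Ifit3), the OAS family (-0.58) and the neutrophil markers (-0.60).

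Beyond the set, 143 further genes were read in 8 lists, called pathway genes here. They cover steps upstream, further interferon-induced genes, MHC class I genes and, for comparison, constitutive proteasome subunits. Of these genes 131 could be tested and none was called. Of 10 interferon genes, 9 (Ifnb1, Ifna1, Ifna2, Ifna4, Ifna5, Ifne, Ifnk, Ifnl2 and Ifnl3) had no read in any library. A floor of 3 reads per library, chosen here, corresponds to 2.41 to 3.29 normalized counts. Single reads below this floor were counted in some genes, but the absence of reads does not exclude a level below it. Ifng, for interferon-gamma, was 7.22, 0 and 9.0 in Col6a1-/- and 2.08, 13.2 and 12.6 in wildtype, too low to test. Of the 6 receptor chains 5 had lower estimates, none with an unadjusted p under 0.05. The type I receptor chains Ifnar1 and Ifnar2 had log2 fold changes of -0.11 (SE 0.08) and -0.05 (SE 0.08), and the interferon-gamma receptor chains Ifngr1 and Ifngr2 of -0.03 (SE 0.08) and -0.03 (SE 0.08). Ifnlr1, of the type III receptor, was 664 to 729 against 695 to 857 (log2 fold change -0.14, SE 0.11).

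Among kinases and STATs, Stat3, which mainly serves interleukin receptors, was 6493 to 7049 against 7699 to 8809, at 82.5% of wildtype (limma adjusted p = 0.139). Jak1, the kinase common to all interferon receptors, was 7519 to 8436 against 8839 to 9134, at 86.9% (adjusted p = 0.217). The phosphatases Ptpn11 and Ptpn6, which damp receptor signalling, stood at 81.9% and 76.3% of wildtype (adjusted p = 0.115 and 0.147). Of the 5 kinases and STATs 3 were lower without overlap, Stat3, Jak1 and Tyk2. Of 9 negative regulators 2 were, Ptpn11 and Socs3, against 14.2% of all tested genes. With the length and GC trend removed, Stat3, Jak1 and Ptpn11 went from log2 fold changes of -0.28, -0.20 and -0.29 to -0.086, -0.13 and -0.087. The median of the kinases and STATs went from -0.18 to -0.04.

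In the pathway that induces interferons, Tlr9, the endosomal DNA sensor, was 130, 115 and 110 in Col6a1-/- and 249, 242 and 176 in wildtype. This was 53.2% of wildtype (log2 fold change -0.89, SE 0.17, limma adjusted p = 0.0781). The authors' deposited DESeq2 table gave Tlr9 a log2 fold change of -0.67 with an adjusted p of 0.00124. The adaptor Traf3 stood at 80.1% (adjusted p = 0.131). With the length and GC trend removed, Tlr9 was called (log2 fold change -0.82, adjusted p = 0.0494). Plasmacytoid dendritic cells and B cells are known for high Tlr9. Of the 7 markers of B and plasma cells 6 had lower estimates and Jchain a higher one (183% of wildtype), and the part of these cells in the Tlr9 level was not tested.

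Of 67 tested interferon-induced genes outside the set, 39 had lower and 28 higher estimates, and 12 lower and 4 higher ones had an unadjusted p under 0.05, against 48.3% of all tested genes with a lower estimate and 10.6% and 9.72% at that p. Gm12250, an immunity-related GTPase gene, was 69.8, 55.8 and 92.97 against 146, 193 and 132 (46.4% of wildtype, log2 fold change -1.11, SE 0.22, limma adjusted p = 0.0815). Rnf213, a giant ubiquitin ligase with antimicrobial activity, was 6697, 5406 and 5034 against 8221, 8120 and 7941 (70.6%, log2 fold change -0.51, SE 0.11, adjusted p = 0.0869). In the authors' deposited DESeq2 table, Gm12250 was at -0.73 (adjusted p = 0.00146) and Rnf213 at -0.45 (adjusted p = 0.00324). With the length and GC trend removed, Gm12250 was called by limma (-1.28, adjusted p = 0.0453), while Rnf213 was at -0.24. Col6a1-/- replicate 2 was the lowest library for 35 of these 67, so the library pattern of the 40 recurred in them. The median log2 fold change was -0.05 with all libraries and 0.06 without that pool.

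The MHC class I and remaining immunoproteasome genes had 10 lower and 6 higher estimates of 16, led by H2-Q6 and H2-Q7 at 80.0% and 79.0% of wildtype (adjusted p = 0.177 and 0.176), a family whose members share reads. The 14 constitutive proteasome subunits, of the standard proteasome, all lay on the higher side, at a median log2 fold change of 0.14, beside 0.02 for Psmb8 and 0.02 for Psmb9. Psma3 stood at 134% and Psmb1 at 124% of wildtype (adjusted p = 0.145 and 0.123). With a trend on transcript length and GC content removed, that median was 0.03, and these subunits had a median transcript length of 1220 bases against 3161 over all tested genes. Over all 131 tested pathway genes, 24 lower and 8 higher ones had an unadjusted p under 0.05, against 10.6% and 9.72% of all tested genes. Leaving out the constitutive proteasome subunits, 24 lower and 4 higher ones of 117 did. The authors' deposited table had 10 lower and 0 higher pathway genes with an adjusted p under 0.05, of 128 given one, against 3.18% and 1.87% of all genes there. The 10 were Tlr9, Ptpn11, Gm12250, Rnf213, Adar, Pml, Helz2, Znfx1, Lgals3bp and Lgals9.

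**Figure D5:**
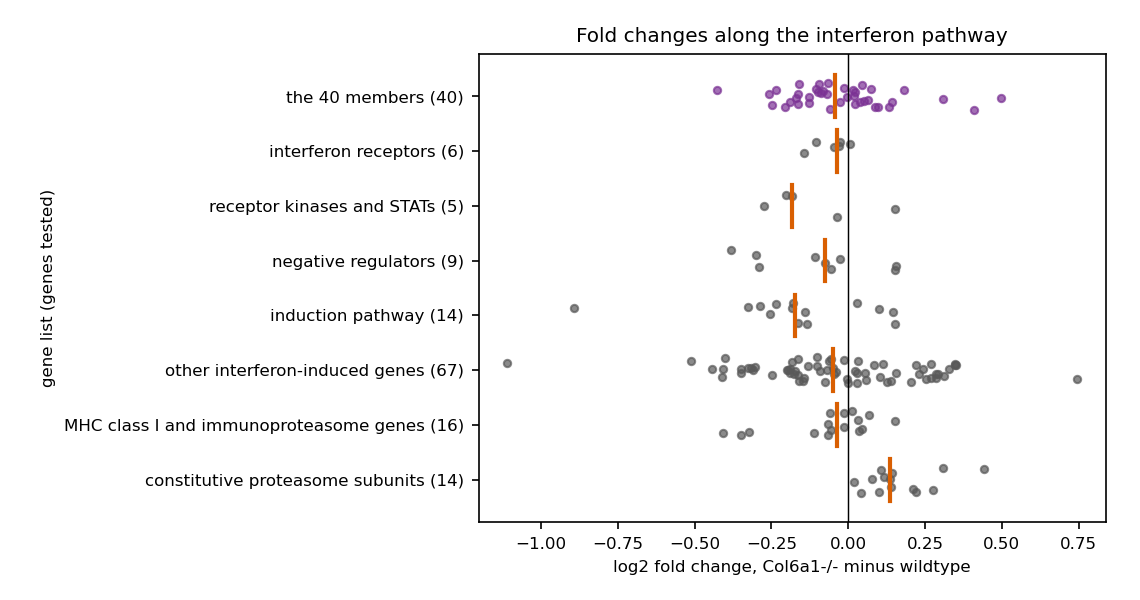
Log2 fold change, Col6a1-/- minus wildtype, of each tested gene (points) in the 40 interferon response genes and in 7 lists of other pathway genes, with the median of each list as an orange bar. The medians run from -0.18 for receptor kinases and STATs to 0.14 for constitutive proteasome subunits, and that of the 40 genes is -0.04. With the length and GC trend removed these 3 medians were -0.04, 0.03 and -0.08.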

How the data were processed

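Members and lists were chosen with earlier results of these data known. The submitters' processing notes name Trimmomatic 0.36, STAR 2.5.2b, Subread 1.5.0p3, featureCounts, R 3.4.1, DESeq2 1.16.1 and GRCm38.p5, without a strand setting. Per the file headers, the authors' signal is a DESeq2 normalized count of each gene in each library. Whole reads could be recovered for all values (100%, to within 1e-06) by undoing the size factors of the libraries, which ran from 0.911 to 1.25. This gave 28055414 to 37904878 reads in genes per library. Their deposited comparison of genotypes lists, for each gene, a mean and a test statistic (each a score here). It also lists the deposited log2 fold change and raw and adjusted p-value.

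Genotypes were compared by limma-trend, two-sided and without covariates, in limma 3.58.1 under R 4.3.3. Values were log2(normalized count + 1) of the 16879 genes at 10 or more in 3 or more libraries. P-values were adjusted by Benjamini-Hochberg over all tested genes, with a threshold of 0.05. They measure the spread between pools of 2 animals. Fold changes on this scale understate those of low genes. Errors are SEs of the limma coefficient. Percentages of wildtype are ratios of mean normalized counts. On the recovered reads, edgeR 4.0.16 (quasi-likelihood) called 13 genes in all and DESeq2 1.42.0 742, and both ran as alternatives. The fit was tested on simulated data.

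Genes described in full were those called, those with an unadjusted p under 0.05 and no overlap between genotypes, and the most abundant gene of each of 11 roles, 11 in all. Pathway genes named were the 2 with the smallest p in each list and 4 receptor chains, and 1 further gene of this rule is not reported here. Names outside this rule were chosen after their values were seen. Transcript lengths and shared stretches come from the GENCODE annotation of GRCm38, which 95.3% of rows matched by symbol. Replicate numbers were not taken to pair the pools.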

Additional observations from a re-analysis of the deposited data

How the results depend on the processing

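Across 18 alternatives the count of the 40 genes called was 0, except 3 with library quality weights (Stat2, Ifit1 and Ifit3, where 19.1% of all genes were called), 1 with DESeq2 (Ifit3) and a range of 0 to 1 when each library was left out in turn (Rsad2, without Col6a1-/- replicate 2). Those with an unadjusted p under 0.05 numbered 3, and 5 without a filter, 6 with median centring, 9 with quality weights, 5 with DESeq2, 1 with the male share as a covariate, 2 with quantile normalization, 2 with the length and GC trend removed and 4 with the replicate block. Leaving out each library gave 1 (without wildtype replicate 2) to 7 (without Col6a1-/- replicate 2), with 6 without Col6a1-/- replicate 1 and 5 without wildtype replicate 3. The 23 lower estimates became 6 with the male share, 27 with median centring, 30 with the length and GC trend removed and 13 to 29 with a library left out, the least without Col6a1-/- replicate 2. The median of -0.04 became 0.16 with the male share, -0.08 with median centring or with the length and GC trend removed, and -0.09 to 0.05 with a library left out. Pathway genes called numbered 0, and 1 without a filter, where 0.327% of all genes were called. They numbered 30 with quality weights (19.1% of all), 10 with DESeq2 (5.06%) and 3 with the length and GC trend removed (0.493%). With a library left out they numbered 0 to 12, the most without wildtype replicate 3, where 8.26% of all genes were called. Col6a1 was -1.24 (adjusted p = 0.117) with the male share and -1.08 to -0.94 with a library left out, no longer past the threshold without Col6a1-/- replicate 3 (adjusted p = 0.123) or wildtype replicate 1 (adjusted p = 0.0660).

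Log2 fold changes of single genes that reversed were none of them called. With the male share these were Irf1 (0.068), Oasl2 (0.15), Mx1 (0.51), Tap1 (0.17), Ptpn6 (0.016), H2-Q7 (0.0067), H2-Q6 (0.044), Ifnar2 (0.010) and Ifngr2 (0.036). With the length and GC trend removed they were Bst2 (-0.028), Gbp2 (-0.015), Iigp1 (-0.18) and Ifngr2 (0.039), and with quantile normalization Ifngr1 (0.028) and Ifngr2 (0.0074). With a library left out, Oasl2 ran from -0.20 to 0.045, Mx1 from -0.26 to 0.26 and Bst2 from -0.045 to 0.14. The cause was not tested. Same-numbered pools correlated by -0.14, 0.11 and -0.01 in their deviations from the group means. With 3 pools per genotype these values cannot settle whether the numbers pair them. With the number as a replicate block, 0 of the 40 were called, 7 genes were called in all, the 23 lower estimates and the median of -0.04 stayed, and Ifit3 had an adjusted p of 0.109. With 3 pools per genotype, the median of -0.04 became 0.05 without Col6a1-/- replicate 2 and 0.16 with the male share as a covariate. The SD of the averaged log2 level of the 40 between pools, pooled over both genotypes, was 0.15. The spread behind it was mostly that of Col6a1-/- (0.10, -0.25 and 0.12), as the wildtype pools lay at 0.02, 0.03 and -0.01. The set thus had no settled direction.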
